A study of Homo sapiens with 9 samples.

Results

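The ZNF genes outside chromosome 19 are the 225 protein-coding genes of GENCODE 29 on the other autosomes whose symbol is ZNF followed by a number, out of 56865 genes whose reads were summed. They lie on 19 chromosomes, and 196 of them were expressed highly enough to be tested. Their levels were followed in 9 poly(A) RNA sequencing libraries of cells labelled BxPC3, a human pancreatic adenocarcinoma line, with the genotype label p53Y220C/-, which all groups share. The groups, with 3 libraries each, were vehicle (DMSO), MS172 and PK9328, and the series design asks how expression differs between DMSO and MS172. PK9328 is known as a small molecule that binds the Y220C form of p53. The treatment protocol gives 5 µM for 6 h, but names MS78 beside PK9328 where the titles name MS172. For MS172, this dose and time were therefore stated under another compound name. Nothing in the labels says whether replicates were grown separately, and the p-values describe the spread among libraries, which may be technical.

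Most ZNF genes encode C2H2 zinc finger proteins, in which pairs of cysteines and histidines hold a zinc ion and arrays of such fingers read DNA, or in some members RNA or protein. Many also carry a KRAB domain, which recruits the corepressor TRIM28 and through it the histone methyltransferase SETDB1, and are best known for silencing transposable elements. A smaller set carries a SCAN domain, through which these proteins form dimers. The largest human clusters of KRAB genes are on chromosome 19, and the genes described here are the ones dispersed over the rest of the genome.

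A KRAB A box was found in 99 of the 225 members and a SCAN domain in 18, by matching proteins translated from the GENCODE coding sequences. A member was counted as KRAB when at least 10 of 15 conserved positions matched. Those counted had 11 or more and those left out 9 or fewer. The median member held 9 C2H2 fingers, the most was 34 in ZNF462, and 9 members had no match to the finger pattern. The coding DNA of 1 finger is shown for ZNF391, which fell with MS172, and for ZNF410, which rose. Capitals mark the codons of the 2 cysteines and 2 histidines that the pattern matched. The ZNF391 stretch also holds a cysteine codon in lower case (tgc) between the 2 marked ones. It too fits the spacing of the pattern, so the first marked cysteine may not be the one that holds zinc. The positions are chr6:27400695-27400763 (exon 3, plus strand) and chr14:73904040-73904108 (exon 6, plus strand) on GRCh38.
ZNF391 finger: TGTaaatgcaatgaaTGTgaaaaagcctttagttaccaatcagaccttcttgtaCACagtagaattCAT
ZNF410 finger: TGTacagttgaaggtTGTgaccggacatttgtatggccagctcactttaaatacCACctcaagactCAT
The coding DNA of the KRAB A box is shown for ZNF589 and ZNF764, which both fell with MS172, with the codons that match the conserved positions in capitals. The positions are chr3:48260819-48260920 (exon 3, plus strand) and chr16:30558006-30558107 (exon 1, minus strand).
ZNF589 KRAB A box: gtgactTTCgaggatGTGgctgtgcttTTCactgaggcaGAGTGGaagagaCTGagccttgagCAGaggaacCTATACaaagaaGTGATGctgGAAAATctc
ZNF764 KRAB A box: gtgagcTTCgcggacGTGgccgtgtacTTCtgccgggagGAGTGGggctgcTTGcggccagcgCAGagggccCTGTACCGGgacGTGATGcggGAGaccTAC
Of the codons shown in capitals, ZNF589 had 13 and ZNF764 had 14. The protein lengths were 364 and 408 residues for these 2 genes, 358 for ZNF391 and 516 for ZNF410.

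The libraries held 24077353 to 28031886 estimated reads. Mean fragment length was not measured but inferred as transcript length minus effective length, both as deposited, averaged over transcripts of at least 3000 bases. It was 281 to 289 bases with DMSO, 274 to 293 with MS172 and 249.8 to 263 with PK9328. By this estimate the PK9328 libraries had shorter fragments than every other library. The labelled cell type was checked against markers: 8 of 15 epithelial and ductal genes stayed under 1 CPM (1 count in 1000000 of the TMM-scaled library size) in every library, among them EPCAM, CDH1 and KRT7, while KRT8 (651 to 864 CPM), KRT18 (709.7 to 984 CPM), KRT19 (289.7 to 367 CPM), SOX9 (237 to 381 CPM) and CLDN4 (97.4 to 218 CPM) were well above it. Of 10 mesenchymal or fibroblast genes, VIM stood between 8080 and 10383 CPM and COL1A2 between 1799 and 2548 CPM. ZEB1 stood between 80.1 and 103 CPM, and COL1A1 and ACTA2 were also above 1 CPM in every library. The other 5 (CDH2, FN1, TWIST1, THY1 and PDGFRB) stayed under 1 CPM in every library, as did 3 of 4 leukocyte genes. EPCAM, CDH1 and KRT7 did not exceed 0.0745, 0.0417 and 0.103 CPM in any library. The markers thus point both ways and do not establish the labelled line, so the cells are called by their label only. In bulk RNA, fewer cells of a type and less RNA per cell cannot be told apart.

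Messages of these genes are scarce. Members took 0.365 to 0.387% of the matched reads of the DMSO libraries, 0.314 to 0.323% with MS172 and 0.401 to 0.414% with PK9328, and the 3 groups did not overlap. The share was lowest in all MS172 libraries and highest in all PK9328 libraries. Of the 196 tested members, 95 averaged under 10 CPM and 3 reached 100 CPM or more. Per length, the highest levels with DMSO were 117 TPM ± 4.7 (SD, n = 3) for ZNF207, 66.9 TPM ± 7.6 for ZNF706, 63.7 TPM ± 0.93 for ZNF768, 60.7 TPM ± 6.5 for ZNF217, 51.7 TPM ± 3.4 for ZNF511 and 32.5 TPM ± 1.4 for ZNF622. ZNF706, ZNF768 and ZNF217 did not differ beyond their spread.

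**Figure D1:**
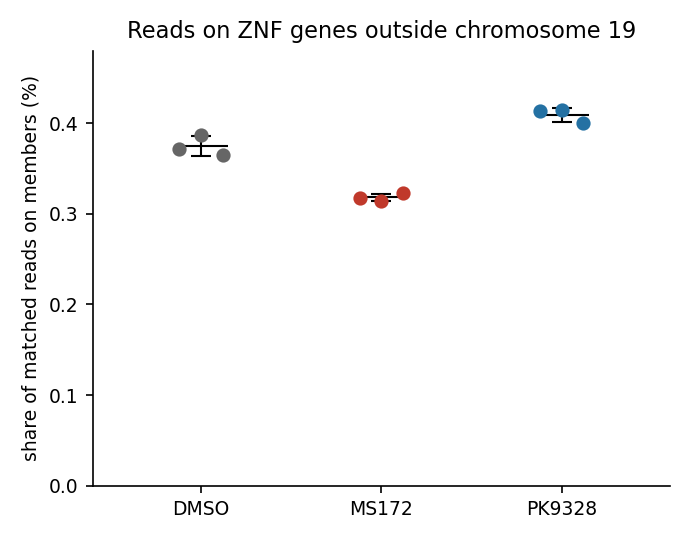
Share of matched reads that fell on the 225 members (percent, vertical axis from 0) in each library of the 3 groups, with black bars for the mean and SD of 3 libraries. The MS172 libraries lie at 0.314 to 0.323%, under the DMSO libraries at 0.365 to 0.387%, and the PK9328 libraries lie at 0.401 to 0.414%, above them.

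With MS172, members fell far more often than they rose. By edgeR's quasi-likelihood test with Benjamini-Hochberg adjustment over all 13914 genes tested, at an adjusted p under 0.05, 96 of 196 tested members (49%) were lower than with DMSO, against 17.2% of all genes tested. Another 11 (5.61%) were higher, against 17.9% of all genes (35.1% of all genes in either direction). The median log2 fold change was -0.25 over the members and -0.02 over all genes. Of the 96, 92 had no overlap between the 3 MS172 and the 3 DMSO libraries. Over all tested members, called or not, 103 of 196 lay lower without overlap, against 22.7% of all genes. The falls were between 0.15 and 2.19 on the log2 scale, with a median of -0.51; 37 exceeded 1.5-fold and 8 exceeded 2-fold. The rises were between 0.10 and 0.85, and 10 of the 11 had no overlap. Over all tested members, called or not, 15 of 196 lay higher without overlap, against 22% of all genes.

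With PK9328, every member that passed the same test was higher. There were 32 higher members (16.3%), against 7.98% of all genes, and 31 of them had no overlap between groups. No member was lower by edgeR, DESeq2 or limma-voom, against 7.48% of all genes by edgeR (15.5% of all genes in either direction), and 4 were lower at an unadjusted p under 0.05. Over all 196 tested members, called or not, 66 lay higher without overlap, against 15.9% of all genes, and 8 lay lower, against 15.4%. The rises were between 0.13 and 0.76, with a median of 0.29, and the median over all tested members was 0.11 against 0.00 over all genes. Fragment length was shorter in this group, as given above, so treatment and fragment length cannot be told apart. With fragment length as a covariate 1 member was higher, while the median over the members was 0.13, and the calls over all genes went from 1110 higher and 1041 lower to 109 and 66. Without DMSO replicate 1 there were 16, without DMSO replicate 3 there were 21 and without PK9328 replicate 1 there were 19.

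Both comparisons use the same DMSO libraries, so the values of each member are given side by side and the overlap of their calls is not counted as a result.

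**Figure D2:**
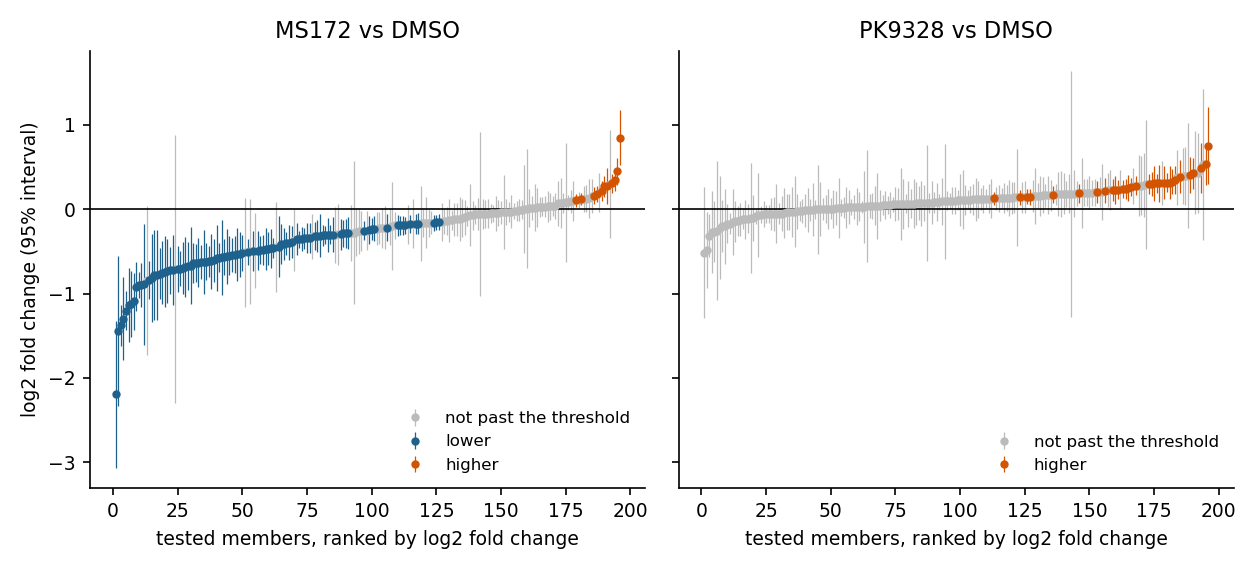
Log2 fold change with 95% interval for each of the 196 tested members, ranked within each panel, for MS172 against DMSO (left) and PK9328 against DMSO (right). Colour marks the members past the threshold: 96 lower and 11 higher with MS172, and 32 higher with PK9328.

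Members with a KRAB domain fell far more often than they rose. Of 85 tested KRAB members, 45 fell (52.9%, against 17.2% of all genes) and 2 rose with MS172, with a median log2 fold change of -0.32, and of the 111 without a KRAB box 51 fell (45.9%) and 9 rose, with a median of -0.16. ZNF589, whose KRAB box is printed above (ENSG00000164048, chromosome 3, 48241100 to 48299253), stood at 8.76, 8.85 and 9.46 CPM with DMSO, at 4.0, 3.91 and 3.84 CPM with MS172 and at 12.1, 10.9 and 12.4 CPM with PK9328. The 3 groups did not overlap: every MS172 library was under every DMSO library and every PK9328 library above. The log2 fold change was -1.20 ± 0.11 (SE) with MS172 (edgeR adjusted p = 9.8e-10) and 0.39 ± 0.10 with PK9328 (edgeR adjusted p = 0.0055).

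ZNF621, another KRAB gene of chromosome 3 (40524878 to 40574685), followed the same order with a narrow spread. It stood at 18.1, 19.3 and 17.5 CPM with DMSO, 9.63, 10.0 and 9.89 CPM with MS172 and 23.6, 22.1 and 22.3 CPM with PK9328. The groups did not overlap, and the log2 fold changes against DMSO were -0.90 ± 0.08 (edgeR adjusted p = 2.3e-10) and 0.30 ± 0.07 (edgeR adjusted p = 0.0027). ZNF764 (chromosome 16, 30553764 to 30558498, overlapping 1 gene on its strand) read 7.83, 7.53 and 9.41 CPM with DMSO, 4.12, 4.79 and 4.38 CPM with MS172 and 8.48, 8.38 and 10.8 CPM with PK9328. Its MS172 libraries were all lower, by a log2 difference of -0.90 ± 0.13 (edgeR adjusted p = 2.9e-06), while the PK9328 and DMSO libraries overlapped. ZNF12 (chromosome 7, 6688433 to 6706923) stood at 46.0, 48.7 and 42.7 CPM with DMSO and 35, 33.2 and 31.7 CPM with MS172. The groups did not overlap, and its log2 fold change was -0.46 ± 0.06 (edgeR adjusted p = 3.7e-07).

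Of the 8 members that fell by more than 2-fold with MS172, several were KRAB genes with few reads. ZNF891, on chromosome 12, stood at 2.36, 3.43 and 2.77 CPM with DMSO and 1.67, 0.71 and 1.08 CPM with MS172, a log2 difference of -1.30 ± 0.24 (edgeR adjusted p = 0.00011). ZNF782 fell by 1.12 ± 0.19 (edgeR adjusted p = 3.6e-05) and ZNF658 by 1.09 ± 0.16 (edgeR adjusted p = 5.9e-06), both on chromosome 9 and with no overlap between groups. ZNF658 has a near-identical copy, so its value is uncertain. ZNF19, on chromosome 16, fell by 1.14 ± 0.22 (edgeR adjusted p = 0.00013), but its span overlaps 3 genes on its own strand, and with protein-coding transcripts alone its log2 fold change was -0.46 (edgeR adjusted p = 0.52). The lowest log2 fold change of any member was -2.19 ± 0.43 for ZNF852 (edgeR adjusted p = 0.00018), named here after its values were seen. With protein-coding transcripts alone the fitted value was -6.66, which depends on the prior count and is no bound. The gene lay under 1 CPM in every library, at 0.969, 0.937 and 0.652 CPM with DMSO and 0.122, 0.266 and 0.167 CPM with MS172.

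Among KRAB factors with a described function, ZNF445, which helps to keep the methylation of imprinted genes, fell. It stood at 12.1, 14.6 and 12.6 CPM with DMSO and 7.51, 7.94 and 8.72 CPM with MS172, a log2 difference of -0.70 ± 0.10 (edgeR adjusted p = 3.3e-06). The groups did not overlap. ZNF268, which lies in the chromosome 12 cluster, stood at 10.6, 10.4 and 11.5 CPM with DMSO and 6.57, 7.46 and 6.97 CPM with MS172. Its log2 fold change was -0.63 ± 0.10 (edgeR adjusted p = 1.3e-05), and -0.36 with counts rebuilt from length-scaled TPM (edgeR adjusted p = 0.28). ZNF10, whose KRAB domain is the one most used in engineered repressors, did not pass the test, at -0.27 (95% interval -0.55 to 0.01). ZNF140 also did not pass, at -0.22 (95% interval -0.41 to -0.04, edgeR adjusted p = 0.055), although without DMSO replicate 2 it did (adjusted p = 0.035).

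Of the 18 tested members with a SCAN domain, 11 fell with MS172 (61.1%, against 49% of all members and 17.2% of all genes). Their median log2 fold change was -0.41. ZNF500 (chromosome 16, 4748239 to 4767624) stood at 8.57, 9.5 and 8.8 CPM with DMSO, 5.3, 4.88 and 4.84 CPM with MS172 and 8.33, 8.82 and 8.75 CPM with PK9328. The MS172 libraries were all lower, by a log2 difference of -0.84 ± 0.11 (edgeR adjusted p = 5.4e-07), and PK9328 and DMSO overlapped. ZNF202, a repressor of lipid metabolism genes, stood at 8.37, 9.47 and 10.8 CPM with DMSO, 6.08, 7.77 and 6.51 CPM with MS172 and 11.3, 12.9 and 13.7 CPM with PK9328. Its log2 fold changes were -0.49 ± 0.12 with MS172 (edgeR adjusted p = 0.0013), or -0.84 with length-scaled TPM, and 0.41 ± 0.11 with PK9328 (edgeR adjusted p = 0.0077). The PK9328 call was lost without DMSO replicate 1 (edgeR adjusted p = 0.078) or PK9328 replicate 3 (0.051). ZNF24 differed less, at 80.7, 85.7 and 75.6 CPM with DMSO and 70.9, 73.9 and 72.2 CPM with MS172, a log2 difference of -0.16 ± 0.05 (edgeR adjusted p = 0.0079, 0.076 without DMSO replicate 2 and 0.17 with a GC and length offset that set each library's level).

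**Figure D3:**
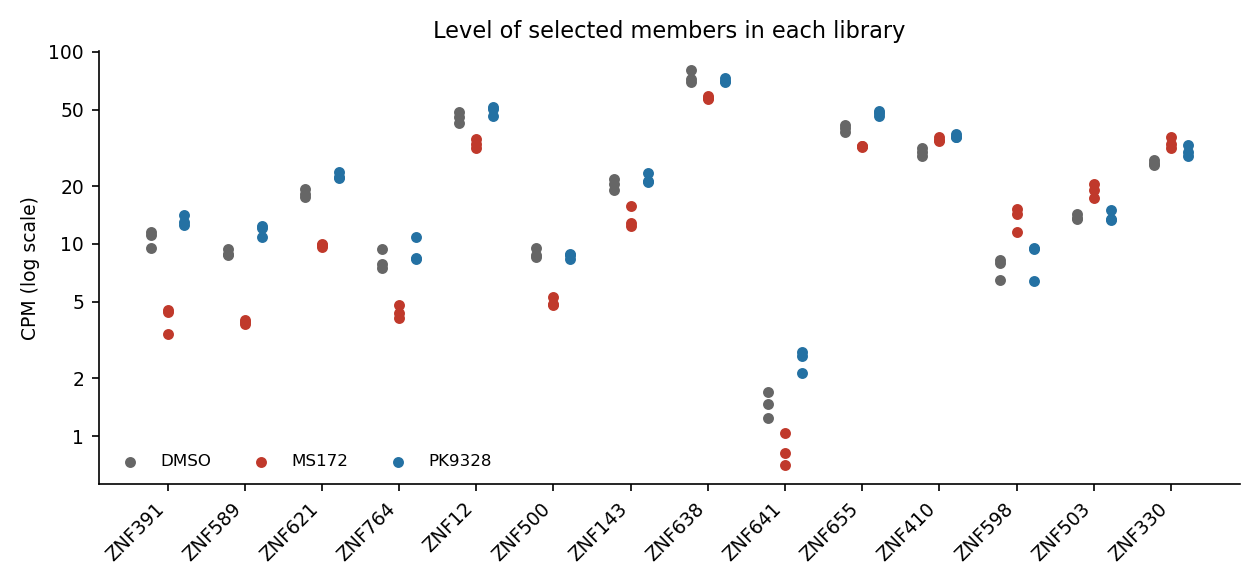
CPM of 14 members in each library (log axis), with 3 points per group for DMSO, MS172 and PK9328. From ZNF391 to ZNF655 the MS172 libraries lie under the DMSO libraries, whereas for ZNF410, ZNF598, ZNF503 and ZNF330 they lie above them.

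Of 11 tested members of the list of transcription and chromatin factors, 7 fell and 1 rose with MS172. Of all tested members 49% fell and 5.61% rose, and of all genes 17.2% and 17.9%. ZNF143, an activator that binds promoters and the anchors of chromatin loops, stood at 19, 21.7 and 20.5 CPM with DMSO, 12.9, 12.4 and 15.8 CPM with MS172 and 21.3, 21 and 23.5 CPM with PK9328. All MS172 libraries were lower, and the log2 fold change was -0.57 ± 0.08 (edgeR adjusted p = 5.4e-06), or -1.12 with length-scaled TPM. ZNF638, which takes part in the silencing of unintegrated retroviral DNA, stood at 72.5, 79.9 and 69.5 CPM with DMSO and 57.1, 57.6 and 59.1 CPM with MS172. It fell by 0.35 ± 0.05 on the log2 scale (edgeR adjusted p = 1.8e-06), again without overlap. ZNF592, ZNF687 and ZNF532, which form a complex with the chromatin reader ZMYND8, fell together, by 0.34 ± 0.06, 0.30 ± 0.06 and 0.34 ± 0.09 (edgeR adjusted p = 7.7e-05, 8.6e-05 and 0.0035). With length-scaled TPM the call for ZNF532 was lost (edgeR adjusted p = 0.07).

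The falls of ZNF148 and ZNF217 were smaller. ZNF148, which binds GC-rich promoters, had a log2 difference of -0.19 ± 0.05 (edgeR adjusted p = 0.0039, and 0.098 with a GC and length offset that set each library's level). ZNF217, an oncogene amplified in breast cancers that works with corepressors, stood at 259, 254 and 226 CPM with DMSO and 208, 214 and 232 CPM with MS172. These groups overlapped, and its log2 fold change of -0.18 ± 0.05 (edgeR adjusted p = 0.012) lost its call without DMSO replicate 1 (adjusted p = 0.064), DMSO replicate 2 (0.087), MS172 replicate 1 (0.059) or MS172 replicate 2 (0.058), with length-scaled TPM (0.077) and with that offset (0.14).

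ZNF410, an activator of the chromatin remodeller gene CHD4 whose finger is printed above, was the factor of that list that rose. It stood at 31.6, 30.2 and 28.5 CPM with DMSO, 36.1, 34.1 and 34.8 CPM with MS172 and 36.2, 37.5 and 35.9 CPM with PK9328. Both treated groups lay above DMSO without overlap, by log2 fold changes of 0.22 ± 0.06 (edgeR adjusted p = 0.0031) and 0.28 ± 0.05 (edgeR adjusted p = 0.00063). With length-scaled TPM the first missed the threshold (edgeR adjusted p = 0.057), and the span of ZNF410 overlaps 3 genes on its strand and 3 on the other. CHD4 itself had a log2 difference of 0.08 with MS172 (edgeR adjusted p = 0.080) and -0.09 with PK9328 (edgeR adjusted p = 0.12).

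Of the 11 members that rose with MS172, 9 had no KRAB box, as had 111 of the 196 tested. In the list of 6 members that act on RNA, ribosomes or protein modifiers, 2 rose and 2 fell with MS172. Of all genes, 17.9% rose and 17.2% fell, and of all members 5.61% and 49%. ZNF598, a ubiquitin ligase that marks collided ribosomes (chromosome 16, 1997654 to 2009823), had the largest rise. It stood at 8.29, 7.94 and 6.52 CPM with DMSO, 14.4, 15.2 and 11.5 CPM with MS172 and 9.54, 9.44 and 6.4 CPM with PK9328. The MS172 libraries were above all others, by a log2 difference of 0.85 ± 0.15 against DMSO (edgeR adjusted p = 0.00062), while DMSO and PK9328 overlapped. ZNF330, a nucleolar protein, stood at 25.8, 27.4 and 26.4 CPM with DMSO, 33.2, 31.6 and 36.1 CPM with MS172 and 32.9, 28.7 and 30.1 CPM with PK9328. It rose by 0.34 ± 0.06 with MS172 (edgeR adjusted p = 9.3e-05) and 0.20 ± 0.06 with PK9328 (edgeR adjusted p = 0.026), the latter lost without DMSO replicate 1 (adjusted p = 0.11), DMSO replicate 3 (0.074) or PK9328 replicate 1 (0.18) and with a GC and length offset that set each library's level (0.069). ZNF593, which is not on that list and whose yeast counterpart takes part in making the large ribosomal subunit, rose from 35.2, 34.1 and 34.8 CPM to 45.6, 42.0 and 41.2 CPM with MS172, a log2 difference of 0.31 ± 0.05 (edgeR adjusted p = 5.7e-05), or 0.15 with a centred GC and length offset.

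ZNF346 and ZNF451 were lower with MS172 and higher with PK9328 in the reported fit. ZNF346, which binds double-stranded RNA, stood at 16.4, 17.5 and 17.7 CPM with DMSO, 15.6, 12.9 and 13.8 CPM with MS172 and 21.6, 21.1 and 22.2 CPM with PK9328. The 3 groups did not overlap, with log2 fold changes of -0.29 ± 0.08 (edgeR adjusted p = 0.005) and 0.33 ± 0.07 (edgeR adjusted p = 0.0021), the latter 0.06 with fragment length as a covariate (edgeR adjusted p = 0.91). ZNF451, a SUMO ligase, stood at 39.9, 41.6 and 39.3 CPM with DMSO, 37.7, 32.9 and 35.4 CPM with MS172 and 49.6, 52.1 and 47.9 CPM with PK9328. Its log2 fold changes were -0.19 ± 0.06 (edgeR adjusted p = 0.0094, 0.086 without MS172 replicate 2, 0.092 with length-scaled TPM and 0.11 with a GC and length offset that set each library's level) and 0.31 ± 0.05 (edgeR adjusted p = 0.00014), or 0.25 with the covariate (edgeR adjusted p = 0.33). ZNF622, a factor of large ribosomal subunit maturation, was higher with PK9328, at 43.1, 46.2 and 48.2 CPM against 40.1, 38.2 and 38.2 CPM with DMSO, a log2 difference of 0.24 ± 0.05 (edgeR adjusted p = 0.0018). Its MS172 libraries, at 39.6, 38.1 and 38.5 CPM, overlapped those of DMSO. ZNF207, which binds microtubules and helps chromosomes to align in mitosis, had a log2 difference of 0.12 ± 0.04 with MS172 (edgeR adjusted p = 0.0073, and 0.063 without MS172 replicate 2), or 0.21 with a GC and length offset that set each library's level.

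ZNF391, a finger gene with no KRAB box by the match used here (ENSG00000124613, chromosome 6, 27374615 to 27403904), had the largest fall with MS172 among members at 1 CPM or more. It stood at 9.53, 11.6 and 11.1 CPM with DMSO, 4.41, 3.42 and 4.55 CPM with MS172 and 13.1, 14.2 and 12.6 CPM with PK9328. Each MS172 library lay under every DMSO library, a log2 difference of -1.38 ± 0.12 (edgeR adjusted p = 1.6e-10). The PK9328 value of 0.31 ± 0.10 (edgeR adjusted p = 0.035) lost its call without DMSO replicate 1 (adjusted p = 0.21), DMSO replicate 3 (0.063), PK9328 replicate 1 (0.071) or PK9328 replicate 2 (0.17), and with DESeq2 (0.062), protein-coding transcripts alone (0.057) or the replicate block (0.053). ZNF594, on chromosome 17, stood at 6.43, 6.56 and 5.5 CPM with DMSO and 2.98, 3.24 and 3.59 CPM with MS172, without overlap, a log2 difference of -0.92 ± 0.14 (edgeR adjusted p = 9.1e-06).

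Further rises with MS172 were small apart from ZNF503. ZNF503, a transcriptional corepressor of development, stood at 14.3, 13.7 and 13.5 CPM with DMSO and 19, 17.4 and 20.4 CPM with MS172, a log2 difference of 0.45 ± 0.08 (edgeR adjusted p = 5.8e-05) with no overlap. ZNF362 had a log2 difference of 0.27 ± 0.06 (edgeR adjusted p = 0.00062) and ZNF706 of 0.18 ± 0.05 (edgeR adjusted p = 0.0029). With length-scaled TPM these 2 missed the threshold (edgeR adjusted p = 0.10 and 0.063). ZNF316, a KRAB gene, had a log2 difference of 0.16 ± 0.05 (edgeR adjusted p = 0.012), lost without DMSO replicate 1 (0.054) or MS172 replicate 3 (0.096), and of 0.17 ± 0.05 with PK9328 (edgeR adjusted p = 0.017, value 0.29 with a centred GC and length offset), lost without DMSO replicate 1 (0.082) or PK9328 replicate 1 (0.072). ZNF768 had 0.10 ± 0.04 with MS172 (edgeR adjusted p = 0.034), lost when any DMSO library other than replicate 3 or any MS172 library was left out (0.062 to 0.11), and with the replicate block (0.05), no filter on low counts (0.062), only the libraries compared (0.055), protein-coding transcripts alone (0.059) or a centred GC and length offset (0.21). Its value was 0.13 ± 0.04 with PK9328 (edgeR adjusted p = 0.019), lost without DMSO replicate 1 (0.086), DMSO replicate 2 (0.055) or PK9328 replicate 1 (0.072).

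The largest rise with PK9328 was that of ZNF641, a gene of chromosome 12 with few reads. It stood at 1.24, 1.7 and 1.47 CPM with DMSO, 0.816, 0.71 and 1.04 CPM with MS172 and 2.61, 2.12 and 2.75 CPM with PK9328, and the 3 groups did not overlap. Its log2 fold change with PK9328 was 0.76 ± 0.22 (edgeR adjusted p = 0.02), and the call was lost without DMSO replicate 1 (adjusted p = 0.10), DMSO replicate 3 (0.059), PK9328 replicate 1 (0.076) or PK9328 replicate 3 (0.094). With MS172 its log2 fold change was -0.78 ± 0.26 (edgeR adjusted p = 0.02), lost without DMSO replicate 2 (0.10), MS172 replicate 1 (0.059) or MS172 replicate 2 (0.082) and with length-scaled TPM (0.095). ZNF184, a KRAB gene beside the histone genes of chromosome 6, stood at 13.8, 12.7 and 12.3 CPM with DMSO, 8.61, 8.92 and 10.6 CPM with MS172 and 15.9, 19.5 and 16.7 CPM with PK9328. Its log2 fold change with PK9328 was 0.43 ± 0.09 (edgeR adjusted p = 0.0011), or 0.71 with fragment length as a covariate, and it was the named PK9328 rise that passed in every alternative tried.

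ZNF248, ZNF131, ZNF655, ZNF654, ZNF623 and ZNF778 rose with PK9328 by 0.27 to 0.54 on the log2 scale. ZNF248, a KRAB gene, stood at 5.23, 5.03 and 4.65 CPM with DMSO and 7.85, 6.73 and 7.07 CPM with PK9328, a log2 difference of 0.54 ± 0.12 (edgeR adjusted p = 0.0025). ZNF131 stood at 35.4, 41.0 and 40.3 CPM with DMSO and 48.6, 49.0 and 47.7 CPM with PK9328, a log2 difference of 0.32 ± 0.05 (edgeR adjusted p = 0.00012). ZNF655, a KRAB gene by the match used here, stood at 40.0, 41.3 and 38.3 CPM with DMSO, 32.4, 32 and 32.5 CPM with MS172 and 48.1, 49.3 and 46.5 CPM with PK9328, and rose with PK9328 by 0.27 ± 0.05 (edgeR adjusted p = 0.00039). With protein-coding transcripts alone its value was 0.72 (edgeR adjusted p = 0.13). None of these 3 pairs of groups overlapped. ZNF654 and ZNF623 rose by 0.35 ± 0.08 and 0.30 ± 0.06 (edgeR adjusted p = 0.0036 and 0.00034). ZNF778 rose by 0.32 ± 0.09 (edgeR adjusted p = 0.02), lost without DMSO replicate 3 (0.096) or PK9328 replicate 2 (0.13), and its value was 0.01 with length-scaled TPM. Of 19 members named for PK9328, 18 lost their call with fragment length as a covariate, all but ZNF184. Their log2 fold changes then ran from 0.06 to 0.71 with a median of 0.25, against 0.13 to 0.76 with a median of 0.31 without it, and 6 of the 19 were as large or larger, among them ZNF410 (0.29), ZNF621 (0.37) and ZNF655 (0.32). With length-scaled TPM 12 lost their call, all but ZNF184, ZNF346, ZNF410, ZNF451, ZNF622, ZNF623 and ZNF654.

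Compared directly, 120 of 196 members were lower with MS172 than with PK9328, against 24.4% of all genes, and 8 were higher, against 23.3% (47.7% in either direction). Of the 120, 117 had no overlap between groups, and 17 differed by more than 2-fold. Of the 8, 6 had no overlap. Over all 196 members, called or not, 127 lay lower without overlap, against 29.1% of all genes, and 9 lay higher, against 26.3%. The median log2 difference was -0.33 over the members and -0.03 over all genes. With fragment length as a covariate 55 were lower and 2 higher, with the same member median of -0.33, while the calls over all genes went from 3401 lower and 3240 higher to 1106 and 1368. Without PK9328 replicate 2 or replicate 3 there were 4 higher, or 5 without MS172 replicate 3. ZNF391 differed by -1.68 ± 0.11 (edgeR adjusted p = 5.4e-13), ZNF589 by -1.59 ± 0.11 (edgeR adjusted p = 5.6e-13), ZNF641 by -1.53 ± 0.25 (edgeR adjusted p = 6.6e-06) and ZNF782 by -1.23 ± 0.19 (edgeR adjusted p = 3.6e-06). ZNF621, with the smallest adjusted p of the members (edgeR, 1.1e-13), differed by -1.20 ± 0.08. In the other direction stood ZNF598, by 0.69 ± 0.15 (edgeR adjusted p = 0.0016), ZNF503, by 0.45 ± 0.08 (edgeR adjusted p = 3e-05), ZNF362, by 0.44 ± 0.06 (edgeR adjusted p = 4.5e-07), and ZNF593, by 0.21 ± 0.05 (edgeR adjusted p = 0.0022). The covariate ended the calls of ZNF641, ZNF598 and ZNF503 (edgeR adjusted p = 0.093, 0.40 and 0.11), and a GC and length offset that of ZNF593 (edgeR adjusted p = 0.39 centred and 0.06 setting the level).

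Members with fewer reads had lower fold changes. Of the 65 members with the lowest mean CPM, 33 fell with MS172, with a median log2 fold change of -0.51. Of the next 65, 36 fell, with a median of -0.30, and of the 66 with the highest mean CPM 27 fell and 8 rose, with a median of -0.13. All genes tested in these 3 CPM ranges had medians of -0.18, -0.09 and 0.02, and 15%, 27.4% and 16.7% of them were lower. The shares that rose were 0%, 4.62% and 12.1% of the members, against 2.39%, 5.88% and 26.3% of all genes in these ranges. Rises were thus also scarce among all genes in the 2 lower ranges. Members with and without a KRAB box differ in level, at medians of 7.34 and 14.5 CPM. Within the lowest range, 18 of 37 KRAB members and 15 of 28 others fell, with medians of -0.53 and -0.44, and within the next range 21 of 34 and 15 of 31 fell, with medians of -0.30 and -0.32. Within the highest range, 6 of 14 KRAB members and 21 of 52 others fell, with medians of -0.20 and -0.05. The differences between these groups were not tested. By number of fingers, 33 of 76 members with 7 or fewer fell (43.4%), 30 of 62 with 8 to 11 (48.4%), and 33 of 58 with 12 or more (56.9%). Of all tested members 49% fell, and of all genes 17.2%. These finger groups held 19, 29 and 37 KRAB members and had median levels of 14.2, 8.89 and 10.5 CPM. Their difference was not tested.

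ZNF genes of chromosome 19, chosen by the same symbol rule, numbered 240, of which 193 were tested. With MS172, 101 fell (52.3%, against 17.2% of all genes) and 4 rose (2.07%, against 17.9%), with a median log2 fold change of -0.42. With PK9328, 19 rose (9.84%, near the 7.98% of all genes) and 3 fell (1.55%, against 7.48%), with a median of 0.11. The difference between the 2 sets was not tested, and the sets differ in KRAB share (163 of 193 against 85 of 196) and in level (a median of 5.1 CPM against 10.5 CPM).

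**Figure D4:**
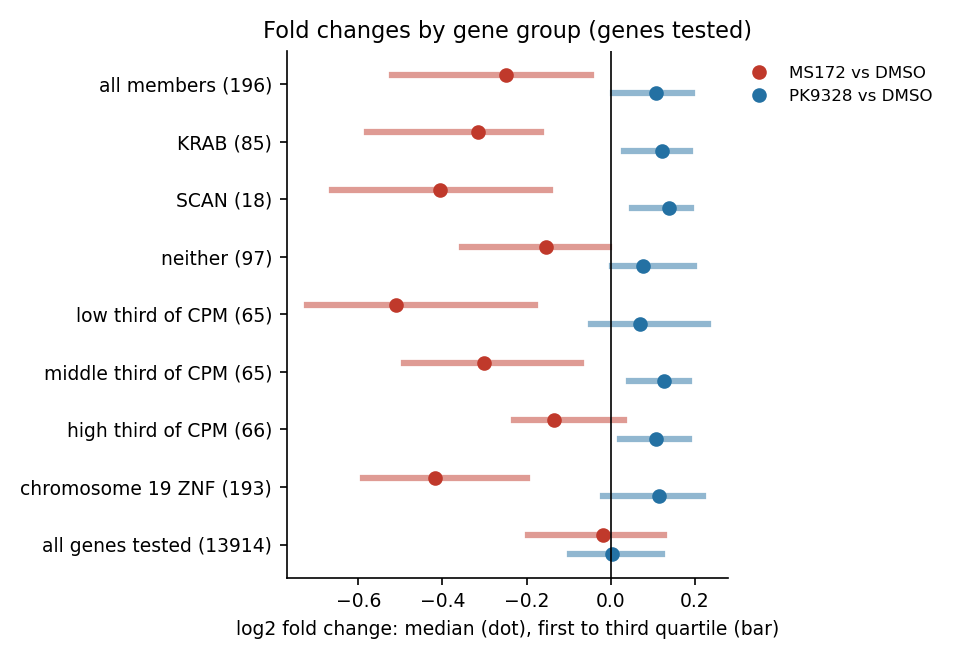
Median log2 fold change (dot) and quartile range (bar) of each gene group, for MS172 against DMSO (red) and PK9328 against DMSO (blue), with the number of genes tested in parentheses. The MS172 medians of the member groups lie between -0.51 and -0.13, under the -0.02 of all genes, and their PK9328 medians lie at or above 0.07.

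By position in the genome, counts are given beside the 17.2% of all genes and the 49% of all members that fell with MS172, and differences between places were not tested. On chromosome 3, 12 of 14 tested members fell (85.7%), with a median log2 fold change of -0.69, and on chromosome 20 all 6 fell, with a median of -0.49. On chromosome 7, which holds the second largest number of tested members, 8 of 28 fell (28.6%) and 2 rose, with a median of -0.09. These places differ in level, with medians of 6.12 CPM on chromosome 3, 14.2 CPM on chromosome 20 and 14.6 CPM on chromosome 7. Shares were also high on chromosomes 2 (5 of 6) and 11 (4 of 5), and low on chromosomes 1 (4 of 17) and 4 (1 of 6). Runs of members with gaps of at most 500000 bases and at least 5 tested genes were found at 7 places. In the run on chromosome 3 from 44431720 to 44737083, which holds ZNF445 and ZNF852, 5 of 6 fell, with a median of -0.73. The median level in this run was 3.55 CPM. In the run at the end of chromosome 12 (132918308 to 133214831), where all 7 members have a KRAB box and which holds ZNF891, ZNF140, ZNF10 and ZNF268, 5 of 7 fell, with a median of -0.40.

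The run on chromosome 7 from 64045443 to 65401135, with KRAB boxes in 6 of 7 tested genes, had 1 member higher, ZNF92, and a median log2 fold change of -0.05 with MS172. These 7 genes had a median of 6.95 CPM and the chromosome 12 run one of 9.69 CPM. In a second run on chromosome 7 (149069643 to 149867479) 4 of 10 fell. On chromosome 16, 1 of 6 fell (16.7%) in the run from 3112560 to 3443553. In the run from 30378106 to 31917357, which holds ZNF764 and ZNF768, 4 of 13 fell and 1 rose. The run on chromosome 8 (144720907 to 144950888) had 2 of 6 lower. Compared directly with PK9328, all 6 of the first chromosome 16 run were lower with MS172, as were all 6 on chromosome 8 and all 7 on chromosome 12. The other runs had fewer: 4 of 6 on chromosome 3 and 1 of 7 and 5 of 10 in the chromosome 7 runs. In the second chromosome 16 run 3 of 13 were lower (23.1%). In that comparison 61.2% of all members and 24.4% of all genes were lower. Neighbours in a run can share sequence and reads, so they are not independent.

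**Figure D5:**
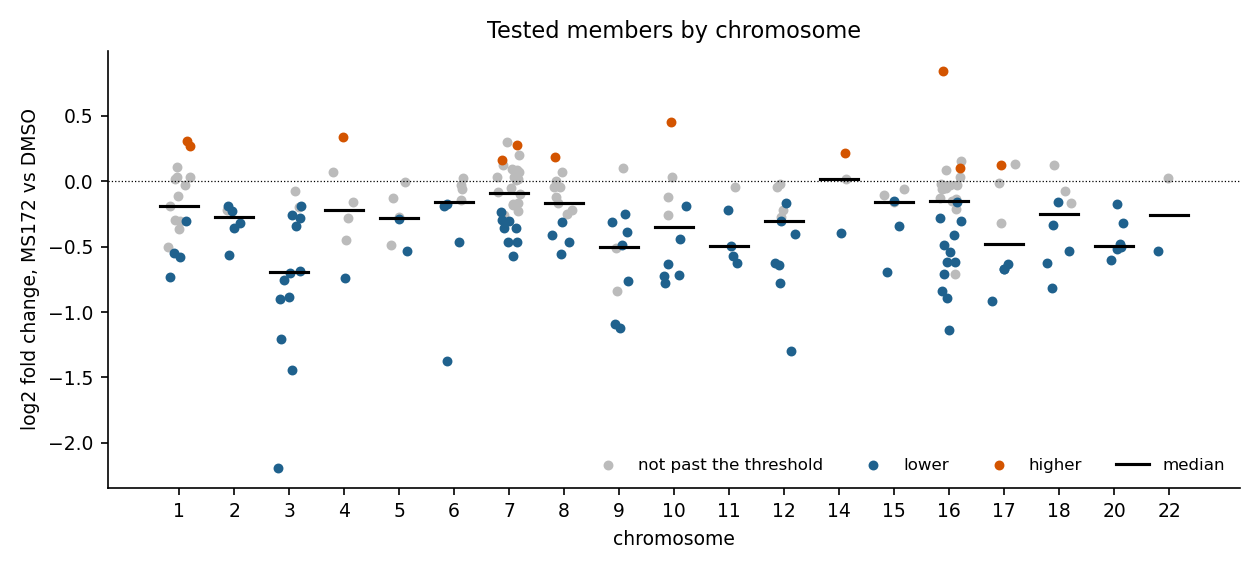
Log2 fold change of each tested member with MS172 against DMSO, by chromosome, with a black line at the median of each chromosome and colour for the members past the threshold. The median is -0.69 on chromosome 3 and -0.49 on chromosome 20, against -0.09 on chromosome 7. The median level of these members is 6.12, 14.2 and 14.6 CPM, in the same order.

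A promoter of 300 bases (250 before to 50 after the start, GRCh38.p14, RefSeq) was matched for 185 of the 225 members. CCGGAAG, the core bound by ETS factors with its flanks, was searched on both strands and occurred in 38.4% of these promoters, against 14.2% of 15843 promoters of protein-coding genes. It occurred in 43% of the promoters of 86 members that fell with MS172, 37.1% of 70 tested members that were not called, 60% of 10 that rose with MS172 and 55.2% of 29 that rose with PK9328. The CCAAT box was in 44.9% of member promoters, against 36.4% of coding genes, and TATAAA in 4.32%, against 9.63%. The promoters of ZNF410, which rose, and ZNF589, which fell, are shown with CCGGAAG or its reverse complement in capitals, at chr14:73886609-73886908 (plus strand) and chr3:48240854-48241153 (plus strand).
ZNF410 promoter: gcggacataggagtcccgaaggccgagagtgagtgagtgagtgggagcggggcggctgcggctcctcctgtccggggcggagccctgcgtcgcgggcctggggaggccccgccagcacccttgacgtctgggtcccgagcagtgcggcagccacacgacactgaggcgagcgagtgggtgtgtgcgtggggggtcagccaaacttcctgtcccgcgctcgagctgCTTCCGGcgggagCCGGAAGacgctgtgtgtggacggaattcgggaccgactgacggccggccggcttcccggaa
ZNF589 promoter: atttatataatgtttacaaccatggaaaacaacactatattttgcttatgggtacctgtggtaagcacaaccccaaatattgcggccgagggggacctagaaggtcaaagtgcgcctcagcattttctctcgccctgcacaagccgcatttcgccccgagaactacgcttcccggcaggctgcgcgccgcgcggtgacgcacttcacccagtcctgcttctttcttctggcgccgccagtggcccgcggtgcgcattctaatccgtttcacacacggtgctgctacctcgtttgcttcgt
The ZNF410 window held 2 matches and the ZNF589 window 0, which says only that these letters were not in that window.

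The corepressors and heterochromatin factors through which KRAB proteins act changed in both directions. Of 28 listed and tested, 5 rose (17.9%, as of all genes) and 7 fell with MS172 (25%, against 17.2% of all genes), with a median log2 fold change of 0.00. With PK9328, 1 rose (3.57%, against 7.98%) and 6 fell (21.4%, against 7.48%), with a median of -0.01. TRIM28, which KRAB domains bind, stood at 476, 460 and 469 CPM with DMSO, 622, 663 and 656 CPM with MS172 and 418, 416 and 414 CPM with PK9328. The groups did not overlap, and its log2 fold changes of 0.47 ± 0.04 (edgeR adjusted p = 1.7e-11) and -0.17 ± 0.04 (edgeR adjusted p = 0.0012) were opposite in sign to the medians of the members. SETDB1, the methyltransferase, fell with MS172 by 0.37 ± 0.07 (edgeR adjusted p = 5.9e-05), from 30.2, 29.6 and 34.6 CPM to 24, 23.7 and 25.2 CPM.

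The 29 members that were not tested were at or near 0. In 14 of them no read was assigned in any library, among them ZNF750, a factor of epidermal differentiation, and the highest of the 29, ZNF860, averaged 0.190 CPM. ZNF462, with the most fingers, and ZNF365 did not exceed 0.112 CPM in any library. Of the listed cancer genes, ZNF395 stood at 50.6 to 56.4 CPM and ZNF703 at 3.67 to 4.88 CPM over all libraries, and neither passed the test in any comparison. ZNF668, also on that list and tested, was higher with MS172 than with PK9328 and was not called against DMSO with either compound.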

How the data were processed

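Poly(A) RNA of 9 libraries was analysed, 3 per group by title. Per the file headers, the deposited tables give an estimated count (NumReads) and TPM for 197653 transcripts per library, the TPM having been scaled by the authors to transcript length and a total of 1000000. FastQC 0.11.8 and the build hg38 are named in the submitters' processing notes. The quantification program is not given in the sources used here, so how reads shared by similar genes were split is unknown. Estimated counts of the 193348 transcripts matched to GENCODE 29 were summed per gene and rounded. Unmatched transcripts held 0.356 to 0.382% of the reads.

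All 9 libraries entered 1 fit in edgeR 4.0.16 (R 4.3.3, robust quasi-likelihood, TMM, filterByExpr by group, no replicate term, 6 residual degrees of freedom), tested on simulated data first. A member fell or rose at a Benjamini-Hochberg adjusted p under 0.05 over 13914 genes. CPM use TMM-scaled library sizes, SE were derived from each F statistic, and errors cover these libraries only. Alternatives used DESeq2 1.42.0, limma 3.58.1 and mgcv 1.9.3, among others. The members and lists were chosen with earlier results of these data known. Named members were, per comparison, the 8 members rising most, the 8 falling most and 4 more with the lowest p, among called members with at least 1 CPM and no overlap between groups (for MS172 against PK9328, 4, 4 and 2), the 6 with the highest TPM with DMSO, and 31 with listed roles. Of those 31, 28 were tested: 14 fell and 4 rose with MS172, and 8 rose with PK9328. The shares were 49%, 5.61% and 16.3% of all tested members, and 17.2%, 17.9% and 7.98% of all genes. KRAB and SCAN domains were read from proteins translated from GENCODE coding sequences, where RefSeq proteins had been planned. Gene positions follow GENCODE 29 (GRCh38, 1-based). Promoters are from RefSeq, GRCh38.p14. Motif searches used both strands, and CCAAT and GGGCGG matches can overlap other motifs. ZNF589, ZNF445, ZNF268, ZNF500, ZNF764, ZNF19 and ZNF410, among others, overlap another gene on the same strand, so their counts are uncertain, as are those of members with a gene on the opposite strand, since use of strand in counting is not stated.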

Additional observations from a re-analysis of the deposited data

How the results depend on the processing

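The number of members lower with MS172 than with DMSO was 71 to 97 over the planned settings and 81 to 94 with each library left out, and the number higher 8 to 14. With counts rebuilt from length-scaled TPM, 69 of the 96 falls were shared. A GC and length offset that set each library's level gave 80 lower and 14 higher, and over all genes 1799 lower and 3427 higher, against 2398 and 2486 in the reported fit. DESeq2 gave 87 lower and limma-voom 92. For PK9328 against DMSO, the number higher was 13 with length-scaled TPM and 1 with fragment length as a covariate, and 16 to 33 with each library left out (16 without DMSO replicate 1, 19 without PK9328 replicate 1, 21 without DMSO replicate 3). The number lower was 1 with RLE size factors, with a filter of 1 CPM in 3 libraries and with length-scaled TPM, and 0 to 1 with each library left out. Between MS172 and PK9328, the number higher was 5 with length-scaled TPM, 5 with protein-coding transcripts only and 2 with the covariate, and 4 to 8 with each library left out, and the number lower was 55 with the covariate. The offset that set the level gave 2582 lower and 4249 higher over all genes there, against 3401 and 3240, and for PK9328 1524 and 1055, against 1041 and 1110. The cause of these shifts was not tested. Same-numbered libraries did not deviate together (correlations of -0.14 to 0.06), and with the replicate block 93 members were lower and 9 higher with MS172, 30 higher with PK9328, and 118 lower and 6 higher with MS172 than with PK9328. Of the tested members, 95 averaged under 10 CPM.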
